A study of Mus musculus with 4 samples.

Results

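Jund, Junb, Fosl2 and Dusp4, the AP-1 subunits and a MAP kinase phosphatase named for this account, are 4 of the 2979 genes in the deposited expression table of a study of chemokine action on lung fibroblasts. The study measured RNA by sequencing in fibroblasts freshly isolated from the lungs of wild-type BALB/c mice aged 4 weeks. The control group was untreated (2 libraries), and the chemokine group was exposed for 3 hours to a mixture of 8 nM CXCL1, 2 nM CXCL2 and 20 nM CXCL8, all recombinant human proteins (2 libraries). The labels do not say whether the libraries of a group came from separate cultures or animals, so their spread may be technical. The 4 genes were found by symbol, and each had 1 row in the table. They were chosen by their RPKM values in these same libraries, with the difference between the groups already known. The table itself holds only genes in which the values of both groups do not overlap, which is true of 2979 of 2979 genes (100%), with 42.4% higher and 57.6% lower in the chemokine group. The differences below are therefore descriptions and carry no p-value.

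AP-1 is a dimer of basic leucine zipper proteins, formed by a Jun family subunit with a Fos family subunit or with another Jun subunit. Growth factors, cytokines and stress reach it through the MAP kinases ERK, JNK and p38, which induce several of its genes within minutes and phosphorylate their products. Cells limit this signal through induced inhibitors, among them dual specificity phosphatases such as Dusp4, which dephosphorylate MAP kinases in the nucleus. In fibroblasts AP-1 controls growth, matrix proteases and inflammatory mediators.

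The 3 subunits share the DNA contact surface that lets them bind AP-1 sites as dimers. The coding sequence of this stretch is shown to set the family members beside each other, with the 12 codons of the conserved basic region in capitals and the stretch that holds the leucine zipper after them. Each has 64 codons, read from the longest GENCODE M21 transcript on build GRCm38. For Jund it lies at chr8:70699871-70700062 on the plus strand (codons 272 to 335 of 341), for Junb at chr8:84977416-84977607 on the minus strand (codons 275 to 338 of 344) and for Fosl2 at chr5:32150466-32152799 on the plus strand, across 2 exons (codons 134 to 197 of 326).
Jund: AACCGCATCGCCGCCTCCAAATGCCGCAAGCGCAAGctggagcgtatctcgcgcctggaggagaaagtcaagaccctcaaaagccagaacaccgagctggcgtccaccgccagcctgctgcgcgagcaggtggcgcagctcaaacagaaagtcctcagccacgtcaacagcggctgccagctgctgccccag
Junb: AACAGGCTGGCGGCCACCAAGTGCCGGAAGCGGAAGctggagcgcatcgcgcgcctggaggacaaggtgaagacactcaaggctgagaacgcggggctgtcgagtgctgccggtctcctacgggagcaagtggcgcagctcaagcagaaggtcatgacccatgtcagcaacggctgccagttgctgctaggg
Fosl2: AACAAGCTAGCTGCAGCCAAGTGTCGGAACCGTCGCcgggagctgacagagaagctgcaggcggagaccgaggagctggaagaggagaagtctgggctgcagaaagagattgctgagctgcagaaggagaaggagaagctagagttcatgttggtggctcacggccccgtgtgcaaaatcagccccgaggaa
Jund and Junb had 144 of 192 bases in common (75%) and 47 of 64 codons for the same amino acid. Fosl2 had 84 bases in common with Jund (43.75%) and 96 with Junb (50%), with 14 and 17 codons for the same amino acid. Within the 12 codons in capitals, 10 gave the same amino acid in Jund and Junb, 7 in Jund and Fosl2, and 8 in Junb and Fosl2. The 2 Jun members, closest in sequence, were both higher after chemokine exposure, and the Fos member was lower. A link between sequence and direction was not tested.

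Jund and Junb were higher in the chemokine libraries and Fosl2 and Dusp4 were lower. Levels are in RPKM, the reads of a gene scaled by its length and the library total, and in bulk samples fewer cells of a type and less RNA per cell cannot be told apart. Jund encodes the Jun subunit that is present in resting cells as well as stimulated ones. Its level was 20.6 and 19.9 RPKM in control 1 and 2, and 29.8 and 29.0 RPKM in chemokine 1 and 2. Both chemokine libraries lay above both controls, and the libraries within a group differed by far less than the groups, which had means of 20.2 ± 0.539 and 29.4 ± 0.585 RPKM (SD, n = 2 per group). Junb encodes an inducible Jun subunit and had the highest level of the 4 genes. It stood at 109.9 and 116 RPKM in the controls and at 158 and 135 RPKM in chemokine 1 and 2. The groups did not overlap, but the chemokine libraries were far apart, with means of 113 ± 4.69 RPKM in control and 147 ± 16.1 RPKM in chemokine (SD, n = 2 per group).

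Fosl2 encodes FRA-2, a Fos family subunit that binds DNA paired with a Jun protein and is made for longer after a stimulus than Fos. Its level was 35.3 and 37.5 RPKM in control 1 and 2, and 29.3 and 27.2 RPKM in chemokine 1 and 2. Both chemokine libraries lay below both controls, with means of 36.4 ± 1.59 and 28.3 ± 1.51 RPKM (SD, n = 2 per group). Dusp4 stood at 32.2 and 30.8 RPKM in the controls and at 23.3 and 21.4 RPKM in chemokine 1 and 2. Its groups were separated by more than the distance between libraries of either group, with means of 31.5 ± 0.994 and 22.4 ± 1.39 RPKM (SD, n = 2 per group).

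**Figure D1:**
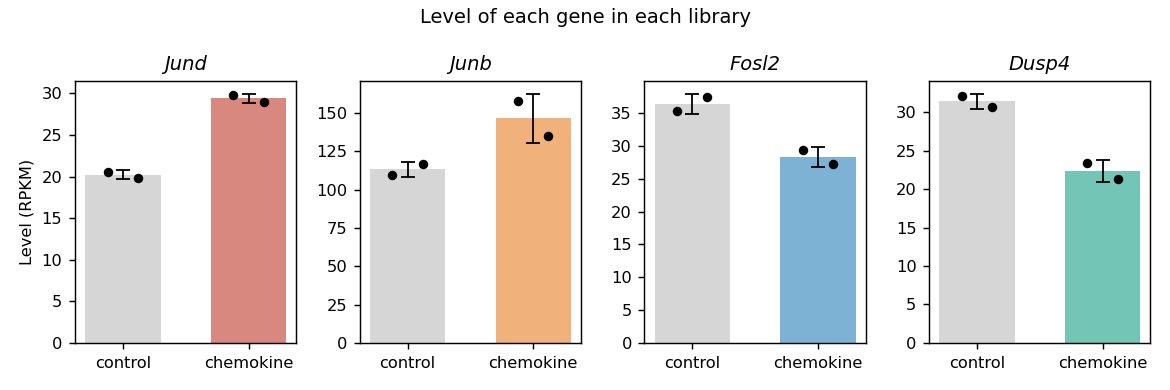
Level in RPKM of Jund, Junb, Fosl2 and Dusp4 in the control and chemokine groups. Points are libraries (2 per group), bars are group means and error bars are SD; the chemokine points of Jund (29.8 and 29.0 RPKM) and Junb (158 and 135 RPKM) lie above the controls, and those of Fosl2 (29.3 and 27.2 RPKM) and Dusp4 (23.3 and 21.4 RPKM) lie below.

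As a ratio of chemokine to control means, the level of Jund was 1.45, with 1.41 and 1.50 as the lowest and highest of the ratios between single libraries. For Junb the ratio of means was 1.29, within single-library ratios of 1.16 to 1.44, the widest range of the 4 genes relative to its size. Fosl2 had a ratio of 0.777 (0.725 to 0.832) and Dusp4 a ratio of 0.711 (0.665 to 0.759). The authors' deposited table gave folds of 1.46, 1.30, 0.778 and 0.712 for Jund, Junb, Fosl2 and Dusp4. By that fold of the authors' deposited table, Jund stood 46th among the 1264 genes given as higher and Junb 397th. Dusp4 stood 459th and Fosl2 935th among the 1715 genes given as lower. On the log2(RPKM + 1) scale, which understates the change of low genes, the differences of means were 0.52 ± 0.05 for Jund, 0.37 ± 0.07 for Junb, -0.35 ± 0.06 for Fosl2 and -0.48 ± 0.06 for Dusp4 (SE from limma, n = 2 per group).

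The order of the levels changed with exposure. In the controls, by the deposited values, Junb was highest, followed by Fosl2, Dusp4 and Jund, and the libraries of neighbouring genes did not overlap. In the chemokine libraries Junb was again highest and Dusp4 was lowest. Jund lay slightly above Fosl2 in both of them, although the ranges of the 2 genes over the libraries (29.0 to 29.8 and 27.2 to 29.3 RPKM) overlapped. The RPKM of Jund over that of Fosl2 was 0.584 and 0.529 in control 1 and 2, and 1.02 and 1.07 in chemokine 1 and 2. The summed RPKM of Jund and Junb over that of Fosl2 went from 3.70 and 3.63 to 6.40 and 6.03. The RPKM of Junb over that of Jund was 5.33 and 5.87 in the controls and 5.30 and 4.66 in chemokine 1 and 2, where control 1 and chemokine 1 were almost equal. The place of Jund in this order depends on the gene length behind its values, which differs from the annotated one as described in the next paragraph. Dividing the same reads by the annotated exon length would put Jund at 35.6 and 34.2 RPKM in the controls, above Dusp4 (32.2 and 30.8 RPKM) and level with Fosl2 (33.9 and 36.1 RPKM). The RPKM of Jund over that of Fosl2 would then be 1.05 and 0.949 in the controls and 1.82 and 1.91 in chemokine 1 and 2. Reads of Jund outside its annotated exon would not count by that annotation, and their number is not known. These values of Jund are therefore upper limits, and its place in the order is not settled. With the same reads, the ratio of a gene's RPKM between the groups does not depend on the length used. These ratios are per kilobase of RNA and say nothing of protein.

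The values implied the reads behind them, because each value is a whole read number divided by a constant of the gene and a constant of the library. The implied totals ran from 28603764 reads in chemokine 1 to 36863654 in control 2. Dusp4 rested on 2808 and 3107 reads in the controls and 1830 and 1984 in the chemokine libraries, over 2740 bases, which is its whole annotated exon length in GENCODE M21. For Jund the smallest whole numbers were 1890 and 2106 against 2455 and 2825 reads, and for Junb 6440 and 7901 against 8314 and 8418. The lengths that go with them, 2878 bases for Jund and 1840 for Junb, equal the spans of these genes in RefSeq on GRCm38.p6 and not the exon lengths of 1668 and 2301 bases in GENCODE M21. For Fosl2 the smallest whole numbers were 10459 and 12875 against 7813 and 8574 reads over 9308 bases. This length is neither its exon length of 9680 bases in GENCODE M21 nor its RefSeq span of 21369 bases. Its exon length in RefSeq was not compared. Counting alone gives a relative SD of 0.881% to 2.34% for these reads. The relative SDs between the libraries of a group were 1.99% to 11.02%, the highest being that of Junb in the chemokine group. For Jund they were 2.66% in control and 1.99% in chemokine, near its counting SDs of 1.88% to 2.30%. For Junb, Fosl2 and Dusp4 they lay above the counting SDs.

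Of the 4 genes, 3 lie on mouse chromosome 8, far apart from each other. In GENCODE M21 on GRCm38, Dusp4 (ENSMUSG00000031530) runs from 34807297 to 34819894 on the plus strand in 4 exons. Jund (ENSMUSG00000071076) runs from 70698949 to 70700616 on the plus strand as a gene with 1 exon. Junb (ENSMUSG00000052837) runs from 84974484 to 84978718 on the minus strand, and its coding transcript has 1 exon too. Fosl2 (ENSMUSG00000029135) is on chromosome 5, plus strand, between 32135801 and 32157842, with 4 exons in its longest transcript and a 3′ untranslated region of 4656 bases, against 536 for Jund, 488 for Junb and 1114 for Dusp4. The transcripts of Jund and Junb are rich in G and C, at 67.1% and 62.6%, against 53.1% for Fosl2 and 56.0% for Dusp4.

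The reads of Jund are uncertain in their source. The annotated antisense gene Gm11175 lies within Jund on the minus strand, and all 877 of its exon bases are shared with Jund. No source used here gives the strand setting, and without it the reads of both cannot be told apart. Gm11175 was itself listed, at 35.7 and 37.1 RPKM in the controls and 49.4 and 47.0 RPKM in the chemokine libraries, again with both chemokine values above both controls. With the trend of fold change with gene length and G and C content removed, as described below, its log2 fold change of 0.40 turned to -0.16, and to -0.14 with implied lengths, while that of Jund stayed above 0. Gm11175 has the highest G and C content of the fitted genes (71.8%), at the edge of that fit. These values therefore cannot tell the reads of both genes apart. Junb shares 173 exon bases with Prdx2, a peroxiredoxin gene on the other strand, through a noncoding transcript that lies outside the RefSeq span matched by the implied length. Prdx2 stood at 78.7 ± 0.454 RPKM in control and 93.3 ± 3.31 RPKM in chemokine (SD, n = 2 per group). Fosl2 and Dusp4 share no exon bases with another annotated gene.

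The windows before the RefSeq starts of the Jun members are shown because both genes were higher together and both lengths follow RefSeq. Each has 250 bases on GRCm38.p6, credited to RefSeq. The Jund window is chr8:70697489-70697738 on the plus strand and the Junb window is chr8:84978749-84978998 on the minus strand. GENCODE places the start of Jund further downstream, so other promoter sequence of Jund is not covered. Capitals mark matches to the searched letters.
Jund: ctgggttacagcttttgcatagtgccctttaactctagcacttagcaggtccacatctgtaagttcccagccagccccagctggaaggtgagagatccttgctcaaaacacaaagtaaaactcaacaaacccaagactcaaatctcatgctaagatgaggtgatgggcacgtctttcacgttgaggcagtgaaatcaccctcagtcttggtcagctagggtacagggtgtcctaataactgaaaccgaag
Junb: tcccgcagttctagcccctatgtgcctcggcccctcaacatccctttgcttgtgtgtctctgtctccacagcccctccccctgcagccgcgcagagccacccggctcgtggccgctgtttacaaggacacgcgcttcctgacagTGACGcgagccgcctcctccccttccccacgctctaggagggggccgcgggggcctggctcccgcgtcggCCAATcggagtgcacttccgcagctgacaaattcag
The search used both strands for the AP-1 site TGANTCA, the cyclic AMP response element TGACGTCA and its core TGACG, the box CCAAT, the GC box GGGCGG and the box TATAAA, of which TGACG is contained in TGACGTCA. Jund had no match, and its window was 47.6% G and C. Junb had 1 match to TGACG, 106 to 102 bases before the start, and 1 to CCAAT, 36 to 32 bases before it, in a window of 66.4% G and C. Of 32851 RefSeq windows of the same length, 17.8% held TGACG, 33.8% CCAAT and 6.75% the AP-1 site. The Fosl2 window, which held 1 GGGCGG and no AP-1 site, lies within the GENCODE transcript and is not shown, and the table used has no entry for Dusp4.

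Fold change in this table went with gene length, and of the 4 genes Dusp4 alone lay on the other side of 0 from most genes of its length. Over 2953 listed genes with an annotation, the log2 fold change had a Spearman's rho of -0.72 with total exon length and 0.31 with the G and C content of the longest transcript. These are descriptions across genes of the same 4 libraries, and genes are not independent replicates. Among the 591 shortest genes (231 to 2084 bases), which include Jund, the median log2 fold change was 0.34, and 24 genes had a higher one than Jund. Junb and Dusp4 fell among the next 590 (2088 to 4457 bases), with a median log2 fold change of 0.27. There 91 genes had a higher log2 fold change than Junb, and 16 had a lower one than Dusp4. Of these 590 genes 18.6% were lower in the chemokine group, Dusp4 among them. By the lengths implied by the values, Jund and Junb change places between these classes. Jund then had 9 genes with a higher log2 fold change in a class with a median of 0.27, and Junb had 228 in the class of the shortest genes with a median of 0.34, while Dusp4 kept its class with 18 lower genes. Fosl2 was among the 590 genes from 6886 to 10099 bases, of which 92.0% were lower, with a median log2 fold change of -0.30.

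**Figure D2:**
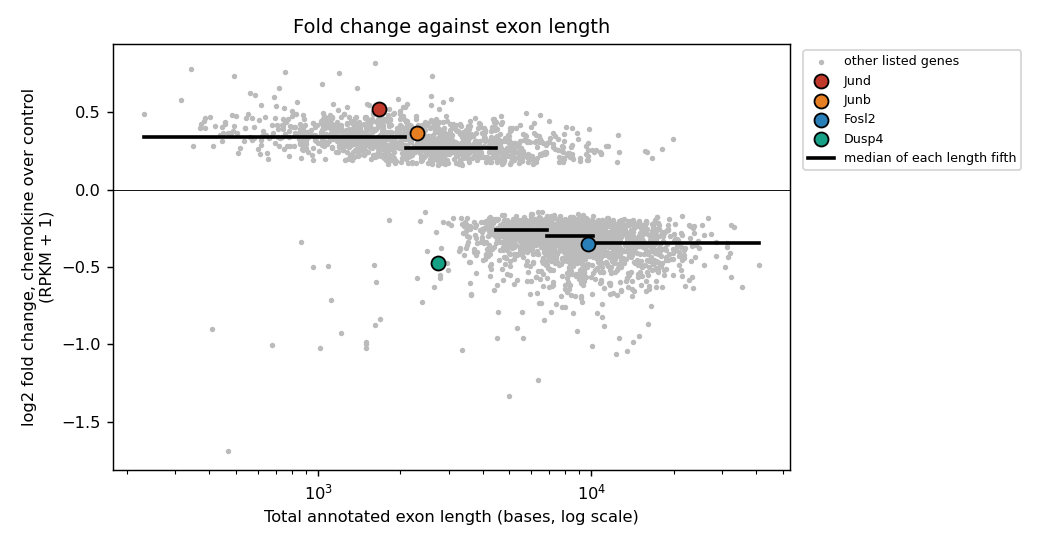
Log2 fold change (chemokine over control, RPKM + 1) against total annotated exon length on a log scale for 2953 listed genes, with Jund, Junb, Fosl2 and Dusp4 in colour and black lines at the median of each of 5 length classes. Jund (0.52), Junb (0.37) and Fosl2 (-0.35) lie on the side of 0 where most genes of their length lie, and Dusp4 (-0.48) lies on the other side; the empty band around 0 comes from the selection of the table.

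With the trend of length and G and C content removed in each library, Dusp4 had a log2 fold change of -0.67 ± 0.05, Jund of 0.12 ± 0.04, Junb of 0.08 ± 0.06 and Fosl2 of -0.03 ± 0.04 (SE, n = 2 per group). When the lengths implied by the values replaced the annotated ones, Jund stood at 0.26 ± 0.05 and Junb at 0.03 ± 0.07, while Fosl2 and Dusp4 stayed at -0.03 ± 0.04 and -0.66 ± 0.05. The choice of length moved Jund by more than its replicate spread, and the annotations place the start of this gene differently. Rescaling each library to a median log2 ratio of 0 over the tested genes, which raised the log2 fold changes by 0.20, gave 0.72 ± 0.05 for Jund, 0.57 ± 0.07 for Junb, -0.15 ± 0.05 for Fosl2 and -0.27 ± 0.05 for Dusp4. Because the groups of these genes do not overlap, leaving out any 1 library could not change a direction. The range of log2 fold changes was widest for Junb, from 0.25 without chemokine 1 to 0.48 without chemokine 2.

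**Figure D3:**
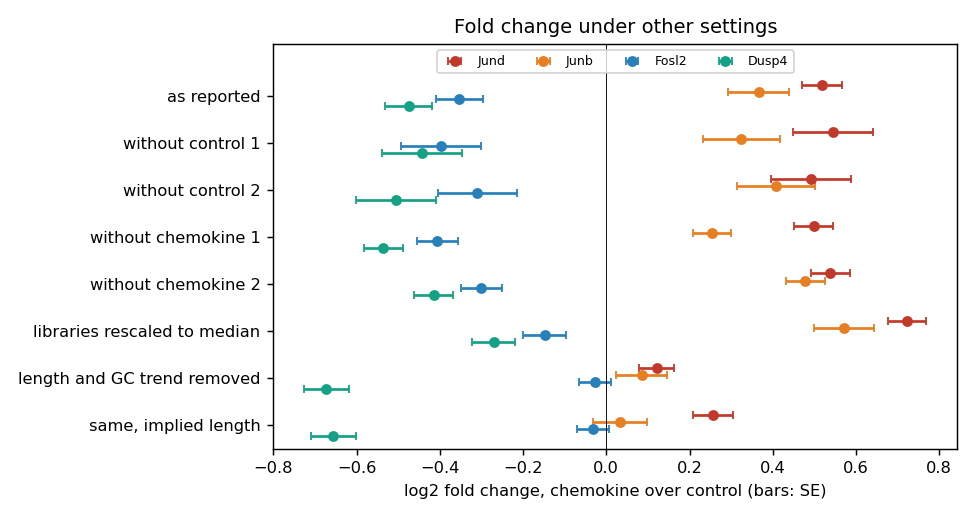
Log2 fold change (chemokine over control) of Jund, Junb, Fosl2 and Dusp4 as reported and under 7 other settings, with SE as error bars. Where 1 library is left out, the SE draws on the spread within the other group only. Removing the length and GC trend brings Jund to 0.12, Junb to 0.08 and Fosl2 to -0.03, while Dusp4 goes to -0.67.

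The genes around AP-1 and the MAP kinases were described by lists written with earlier results of these data known. Genes averaging 1 RPKM or more were tested with limma, adjusted by Benjamini-Hochberg over all 2956 of them at a threshold of 0.05, and because of the selection every tested gene passed, 42.8% as higher and 57.2% as lower. The table was selected on this contrast in the same libraries, so passing limma has no known error rate. This holds with rescaling, trend removal or a required fold too. Passing is therefore used below only to describe genes, and counts are read against these shares. With libraries rescaled as above, 42.8% of the tested genes passed as higher and 25.5% as lower, with a median log2 fold change of -0.02. With the trend removed using implied lengths, 22% passed as higher and 19.2% as lower. Of the 7 core subunits of AP-1 the table holds Jund, Junb and Fosl2, and Fos, Fosb, Fosl1 and Jun were not analysed here. Of 31 other basic leucine zipper genes, 8 were tested, 5 higher and 3 lower, with a median log2 fold change of 0.21 against -0.23 over all tested genes. Cebpb, a regulator of inflammatory and adipocyte genes, went from 117 ± 0.116 to 172 ± 7.48 RPKM (SD, n = 2 per group), and its log2 fold change of 0.55 ± 0.05 (SE) was close to that of Jund. Ddit3 and Atf4, of the integrated stress response, had log2 fold changes of 0.31 and 0.27, Creb3 0.22 and Maff, a small Maf protein, 0.19. Atf7, Atf6 and Maf had -0.53, -0.48 and -0.29. With rescaling 5 passed as higher and 2 as lower, all but Maf. With the length and GC trend removed, Cebpb (0.13), Atf6 (-0.14) and Atf7 (-0.17) still passed, Ddit3 (0.08), Atf4 (0.03) and Maf (0.02) did not, nor did Creb3 (-0.01) and Maff (-0.03), which like Maf changed sign. The same 3 genes passed with implied lengths.

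Dusp4 was 1 of 2 genes of 10 MAP kinase phosphatases in the table. The other, Dusp16, which acts mainly on JNK and p38, stood at 3.59 ± 0.0128 RPKM in control and 2.81 ± 0.186 RPKM in chemokine (SD, n = 2 per group). Its log2 fold change of -0.27 ± 0.06 (SE) turned to 0.02 once the trend with length and GC content was taken out and was -0.07 with rescaling, without passing in either. Among 16 other inhibitors of growth factor and MAP kinase signalling, 11 were tested, 10 of them lower (90.9%) and 1 higher (9.09%), with a median log2 fold change of -0.26. Cbl, a ubiquitin ligase for receptor tyrosine kinases, had -1.06, the related Cblb -0.43, the Ras inactivator Nf1 -0.39, Spred2 -0.39, Spry4 -0.26, Spred3 -0.26 and Errfi1, an inhibitor of the EGF receptor, -0.25. Ier3 was the 1 higher gene, with 0.41. It was placed on this list although it prolongs ERK signalling in some cells, and it also stands among the immediate early genes. With rescaling only 4 passed as lower (36.4%), Cbl, Cblb, Nf1 and Spred2, and 1 as higher, with a median of -0.05. As a description of selected genes, 4 of the 11 passed with the trend removed, all lower (36.4%). Of all tested genes 19.1% passed as lower and 22.1% as higher. The 4 lower genes were Cbl (-0.68), Spred2 (-0.36), Errfi1 (-0.32) and Spry4 (-0.21), and the same 4 passed with implied lengths.

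Among 20 transcripts that follow ERK activity besides Dusp4, 4 were tested. Etv5, an ETS factor downstream of FGF signalling, went from 11.2 ± 0.215 to 8.13 ± 0.514 RPKM (SD, n = 2 per group). The log2 fold changes were -0.42 ± 0.06 for Etv5, -0.26 ± 0.06 for Epha4, -0.26 ± 0.05 for Spry4 and 0.18 ± 0.05 for Phlda1 (SE). With rescaling Etv5 (-0.21) passed as lower and Phlda1 (0.39) as higher, and Epha4 and Spry4 did not pass. Etv5 (-0.45) and Spry4 (-0.21) passed with the trend removed, as lower genes, whereas Epha4 (0.04) and Phlda1 (-0.09) changed sign without passing.

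The cascade upstream of AP-1 had 14 tested genes of 66, 4 higher (28.6%) and 10 lower (71.4%), with a median log2 fold change of -0.24. The lower genes included Sos1 (-0.47), which activates Ras, the kinases Map3k3 (-0.45), Braf (-0.42), Map3k2 (-0.37) and Mapk6 (-0.31), and Rps6ka3 (-0.35), a kinase downstream of ERK. Map2k2, the ERK kinase MEK2, had 0.32 and Rras 0.28. With rescaling 4 passed as higher and 5 as lower (35.7%), with a median of -0.04, and Mapk6 was among the 5 that did not pass. With the trend removed, 5 genes passed, Map2k2 (0.39) and Hras (0.16) as higher and Map3k3 (-0.50), Map2k4 (-0.17) and Rras (-0.12), which changed sign, as lower. With implied lengths Sos1 (-0.16) passed as lower too. Hras and Map2k4 are named here after their values were seen.

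Besides Jund and Junb, 9 of 43 other immediate early genes were tested, 7 higher (77.8%) and 2 lower (22.2%), with a median log2 fold change of 0.24. Ier3 (0.41) was the highest of them, followed by Klf2 (0.32), Ier2 (0.31), Gadd45b (0.30) and Ier5 (0.24), and the nuclear receptor Nr4a2 (-0.35) was the lowest. With rescaling 7 passed as higher and 1, Nr4a2, as lower. With the trend removed Nr4a2 (-0.36) was the 1 gene of these 9 that passed, and with implied lengths Ier5 (0.14) and Zfp36 (0.14) passed as higher beside Nr4a2 (-0.34). Zfp36 is named here after its values were seen. Of 28 genes known as AP-1 targets, 16 were tested, 13 higher (81.2%) and 3 lower (18.8%), with a median log2 fold change of 0.29 and a median exon length that was shorter than that of all listed genes (1776 against 5663 bases). The metallothioneins Mt2 (0.61) and Mt1 (0.49), the chemokines Ccl2 (0.56) and Cxcl1 (0.49), the keratin Krt18 (0.42) and the cytokine Il6 (0.32) were among the higher genes. The matrix glycoproteins Fn1 (-0.62) and Tnc (-0.38) were lower. With rescaling 13 passed as higher and 2, Fn1 and Tnc, as lower. With the trend removed, Il6 (0.37), Ccl2 (0.32), Cxcl1 (0.30), Mt2 (0.24) and Dcn (0.43), the last named after its value was seen, passed as higher, and Fn1 (-0.26) as lower, and the same 6 passed with implied lengths.

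**Figure D4:**
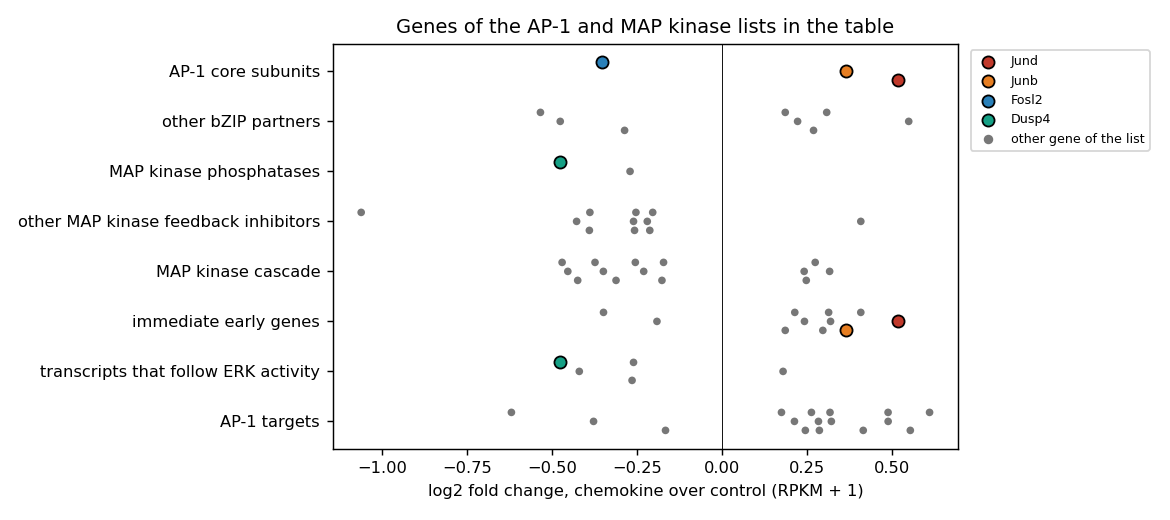
Log2 fold change (chemokine over control, RPKM + 1) of each gene of the 8 lists that the table holds, 1 row per list; points are spread vertically only for legibility and a gene can stand in more than 1 list. Jund (0.52) and Junb (0.37) lie among mostly higher immediate early genes. Dusp4 (-0.48) lies in the rows of MAP kinase phosphatases and of transcripts that follow ERK activity. Of all tested genes 42.8% were higher and 57.2% lower.

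When limma was required to find a fold of more than 1.2, 3.28% of all tested genes were called higher and 10.5% lower. Of the 60 tested list genes other than the 4 named at the start, 5 were called higher (8.33%) and 6 lower (10%). The higher ones were Cebpb, Mt2, Ccl2, Cxcl1 and Ier3, and the lower ones Cbl, Fn1, Atf7, Atf6, Cblb and Sos1. Counts with 1 library left out are not compared, because 1 group then holds a single library and only the other group shows a spread. Rescaling gave 25 higher and 2 lower list genes, against 1175 higher and 94 lower among all 2956 tested genes. Removal of the length and GC trend gave 1 higher and 2 lower, against 102 and 62 among all 2953 tested genes. Among the list genes named here, Mt2 shares 73.5% of its exon bases with another annotated gene, Phlda1 33.0%, Creb3 20.8%, Cebpb 20.7%, Atf7 11.7% and Ddit3 10.9%, so their reads are uncertain in source.

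The genes whose pattern over the 4 libraries lay nearest were found by Euclidean distance of log2(RPKM + 1), centred on the mean of the libraries. For Jund they were Bloc1s4 at a distance of 0.0187, Cmc2 at 0.0455 and Sparcl1 at 0.0467, all at lower levels of between 4.40 and 13.0 RPKM. For Junb they were Map1lc3a (0.0344), an autophagy protein, Zfp771 (0.0501) and 1810009A15Rik (0.0556), each with chemokine 1 above chemokine 2. For Fosl2 they were Med1 (0.00932), a subunit of the Mediator complex, Syt7 (0.00964) and Spag9 (0.0107), with exon lengths from 7487 to 11209 bases. For Dusp4 they were Tet2 (0.00817), an enzyme of DNA demethylation, Faxc (0.0133) and the zinc transporter Slc39a10 (0.0235). These 3 have exon lengths of 16870, 8362 and 6095 bases, each longer than the 2740 of Dusp4, and Tet2 and Faxc had levels of at most 1.68 and 1.62 RPKM. At such levels the added 1 RPKM shrinks the log2 difference, and the authors' deposited table gave Tet2 and Faxc folds of 0.549 and 0.542, against 0.712 for Dusp4 and 0.678 for Slc39a10.

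Markers of cell types were read only as far as the table holds them, where 42.4% of all genes were higher and 57.6% lower. Of 13 fibroblast markers it holds 6, all higher, with summed levels of 1678 to 1691 RPKM in control and 1936 to 1970 RPKM in chemokine. Of 10 endothelial markers it holds 3, all higher, summing to 6.43 to 6.60 RPKM in control and 10.3 to 10.9 RPKM in chemokine. Of 10 macrophage markers it holds 3, 1 higher and 2 lower, summing to 25.9 to 26.2 and 22.9 RPKM. Of 8 epithelial markers it holds 2, 1 higher and 1 lower, summing to 8.31 to 8.47 and 10.1 to 10.5 RPKM. No neutrophil marker of 6 is in the table. The part of other cells in the levels of the 4 genes was not tested.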

How the data were processed

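RNA was sequenced from 2 control and 2 chemokine libraries of mouse lung fibroblasts, grouped and numbered by their titles. Per the submitters' processing notes, TopHat2 2.0.7, DESeq2 and the build GRCm38/mm10 were used, with no roles given. The authors deposited RPKM values of 2979 selected genes and 1 fold, the linear ratio between both groups. The header names no unit, and RPKM was inferred because every value is a whole number of reads times a constant per gene and library, within a relative error of 1e-14. No source used here gives the selection rule, the annotation or the strand setting.

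The design planned for these values was used. Limma 3.58.1 in R 4.3.3, with a mean-variance trend, was run on log2(RPKM + 1) for the 2956 genes averaging 1 RPKM or more, two-sided, with Benjamini-Hochberg adjustment, and again with a minimum fold of 1.2. The fit was tried on simulated data without selection and without a trend with length or GC content. That trial therefore cannot speak for a selected table with such a trend. An exact permutation of 2 against 2 libraries cannot give a p below 0.333. Exon lengths and G and C content came from GENCODE M21, which holds 2976 of the 2979 genes. Removal of the length and GC trend used a loess fit in each library. Genes, lists and named genes were chosen with earlier results of these data known. Named genes are the 4 members, the 3 nearest patterns of each, and up to 8 genes of each list by size of change. Other genes are marked as named after their values were seen.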

Additional observations from a re-analysis of the deposited data

How the results depend on the processing

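The direction of Jund, Junb, Fosl2 and Dusp4 was the same under all 13 alternatives, of which 11 were planned. Because the groups of these genes do not overlap, only rescaling and trend removal could have changed a direction. The log2 fold changes of the 4 genes moved by more than the replicate spread under 4 alternatives. With libraries rescaled they were 0.72, 0.57, -0.15 and -0.27 in that order. Removal of the trend with length and GC content, with or without the replicate block, gave 0.12, 0.0848, -0.0278 and -0.67, and with the implied lengths, chosen after seeing the data, 0.26, 0.0327, -0.0324 and -0.66. The SE of Fosl2 was 0.0386 with the trend removed without the block, and 0.0387 with implied lengths, where that of Junb was 0.0658. Each of these SEs exceeded the size of its log2 fold change, so those directions are uncertain. Leaving out 1 library gave 0.49 to 0.54 for Jund, 0.25 to 0.48 for Junb, -0.41 to -0.30 for Fosl2 and -0.54 to -0.41 for Dusp4. The cause of these shifts was not tested. Since the table was selected on this contrast and genes outside it were not analysed here, neither rescaling nor trend removal stands for all genes of the cells.

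The number of listed genes passing limma, which has no known error rate in this selected table, was 1264 higher and 1692 lower. It was 755 lower with rescaling, 691 lower at a mean of 10 RPKM, 652 higher and 563 lower with the trend removed, 651 and 568 with implied lengths, and 569 and 484 with the trend removed and the replicate block. With a minimum fold of 1.2 the 97 higher and 310 lower genes became 181 and 518 with a pseudocount of 0.1 RPKM, 52 and 86 at a mean of 10 RPKM, and 1175 and 94 with rescaling. With the trend removed 102 were higher and 62 lower (95 and 62 with implied lengths, 86 and 58 with the block). Without 1 library there were 33 to 490 higher and 146 to 708 lower, the extremes coming without control 1 and control 2 and, for both highest counts, without chemokine 1.

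For the AP-1 and MAP kinase lists, 5 higher and 6 lower genes past a fold of 1.2 became 12 lower with the smaller pseudocount, 1 lower at a mean of 10 RPKM, and 25 and 2 with rescaling. They were 1 and 2 with the trend removed, 1 and 1 with implied lengths, and 0 and 2 with the block added, where limma gave 3 higher at an unadjusted p under 0.05. Without 1 library there were 3 to 8 higher and 2 to 14 lower.

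Replicate numbers are shared by the groups, but the labels do not say that they pair the libraries, and deviations of same-numbered libraries had a correlation of -0.156 over 2956 genes. The replicate block gave 155 higher genes past a fold of 1.2, and a crossed pairing, chosen after seeing the data, gave 188 higher and 418 lower.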
